A study of Homo sapiens with 6 samples.

Results

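Proteins of the BCL2 family decide whether the outer membrane of mitochondria stays closed or is permeabilized, the step that releases cytochrome c and starts the intrinsic pathway of apoptosis. The 10 family members described here were found by gene name in the expression table of a human liver tumor cell line, which lists 23524 genes. They are the anti-apoptotic genes MCL1, BCL2 and BCL2L1, the effector genes BAX and BAK1, and the BH3-only genes BID, BAD, BCL2L11, BBC3 and PMAIP1. Anti-apoptotic proteins hold effectors and BH3-only proteins in check, effectors form the pores, and BH3-only proteins relay stress signals by binding the other classes. In liver cells the products of BCL2L1 and MCL1 are known to be needed for survival, and MCL1 is a known target of the transcription factor STAT3.

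The libraries came from Hep G2, a human liver tumor line, made to carry stably either an empty lentivirus vector (control, 3 libraries) or a lentivirus with the EFTUD2 gene (EFTUD2, 3 libraries). EFTUD2 is a GTPase of the spliceosome, and the comparison asks whether the mRNA of these members differed between cells with added EFTUD2 and control cells. The methods name puromycin selection for stable cells without naming the sequenced controls, and the sources used here do not say whether a line was 1 clone or whether replicates were separate cultures, so a p-value may measure technical spread only. Poly-A RNA was sequenced, and the values are FPKM, fragments scaled to transcript length and to the library total, which allow levels of different genes to be compared per length. In such bulk RNA a smaller share of cells that express a gene and less mRNA per cell cannot be told apart. Values are listed for replicates 1 to 3 in that order throughout.

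FPKM values summed to between 404342.5 and 434542.5 per library, and 12201 to 12684 genes stood at 1 FPKM or more. The number of reads behind a value is unknown, so no counting interval can be given. EFTUD2 mRNA was at 41.1, 54.4 and 46.3 FPKM in control cells and at 106.6, 102.9 and 109.5 FPKM in EFTUD2 cells, with no overlap (limma log2 fold change 1.16 ± 0.12 SE, adjusted p = 0.13). The table does not separate vector from endogenous EFTUD2 transcripts. Hepatocyte markers were abundant, with albumin (ALB) between 1773 and 4732 FPKM and alpha-fetoprotein (AFP) between 745 and 2499 FPKM. EFTUD2 replicate 3 stood apart from its group, since its log2 values differed from those of EFTUD2 replicates 1 and 2 with SDs over genes of 0.51 and 0.60, against 0.23 between those replicates. Values are therefore also given without this library where it moves them.

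MCL1 and BCL2L1 are each known to be spliced into forms with opposed effects on survival, and the table holds 1 value per gene for all forms together. To show what was summed, the bases around the splice junction that differs between the long and short coding forms of BCL2L1 are given from GENCODE release 29 transcripts (GRCh38). Capitals mark the last 20 bases before the place where the exon can end, and lower case the 10 bases that follow in the transcript.

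Long form, spliced: TCCAGGAGAACGGCGGCTGGgatacttttg

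Short form, spliced: CATATCAGAGCTTTGAACAGgatacttttg

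Long form, read through the place where the short form is spliced: CATATCAGAGCTTTGAACAGgtagtgaatg

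BCL2L1 lies on the minus strand of chromosome 20 from 31664452 to 31723989. The coding part of the alternative exon runs from 31721655 to 31722218 in the long form and from 31721844 to 31722218 in the short form, and the next coding exon spans 31665952 to 31666086 in both. The short form lacks 189 coding bases, and its exon ends just before the bases gt, with which introns usually begin. The deposited values hold all forms of BCL2L1 together, so a shift between these forms cannot be seen in them.

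For MCL1 (minus strand of chromosome 1, 150574551 to 150579738), the study's qPCR primers show which forms that assay reads.

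MCL1 forward primer: cgacggcgtaacaaact

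MCL1 reverse primer: ggaagaactccacaaaccc

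The pair matched 3 of the 4 MCL1 transcripts in the release and no other gene among 206694 transcripts searched. In the 3-exon coding form the forward primer lies in exon 2 and the reverse primer in exon 3, both in coding sequence, with a product of 194 bp that spans 150577470 to 150578415. The coding form that lacks the middle exon was not matched. The primers thus read the forms with that exon, whereas the FPKM value is a single figure for the gene.

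BCL2L1 and BAX were the most abundant members. Mean control levels were 232 FPKM for BCL2L1, 149 FPKM for BAX and 79.1 FPKM for MCL1, which put these 3 genes above 98.7%, 97.9% and 95.1% of the genes tested. BAK1, BID, BAD and BBC3 followed at 20.8, 17.9, 16.5 and 12.6 FPKM. BCL2L11 stood at 6.77 FPKM and PMAIP1 at 3.97 FPKM, while BCL2, which gave the family its name, was near the lower limit at 0.31 FPKM. Among the control libraries BCL2L1, BAX and MCL1 did not overlap each other. BID overlapped BAK1 and BAD in range, BBC3 overlapped all of these, and BCL2L11, PMAIP1 and BCL2 each lay apart below.

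All 10 members were among the 17222 genes that averaged 0.1 FPKM or more over the 6 libraries and were compared by limma on log2(FPKM + 1), a scale that understates changes of low genes. After Benjamini-Hochberg adjustment over all genes, 0 of the 10 members had an adjusted p under 0.05, and so did 0% of all genes tested. At an unadjusted p under 0.05 limma gave 1 member, BCL2L1, which is 10% of the members against 12.3% of all genes. Of those unadjusted calls over all genes, 757 were higher and 1361 lower in EFTUD2 cells, and with libraries scaled by the median of ratios the split was 1202 to 756. Of the members, 5 had a lower and 5 a higher mean log2 value in EFTUD2 cells, while 62.7% of all genes were lower. The median log2 fold change was 0.008 over the members and -0.07 over all genes, and under the median of ratios it was 0.09 over the members (4 lower, 6 higher) and 0.02 over all genes.

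**Figure D1:**
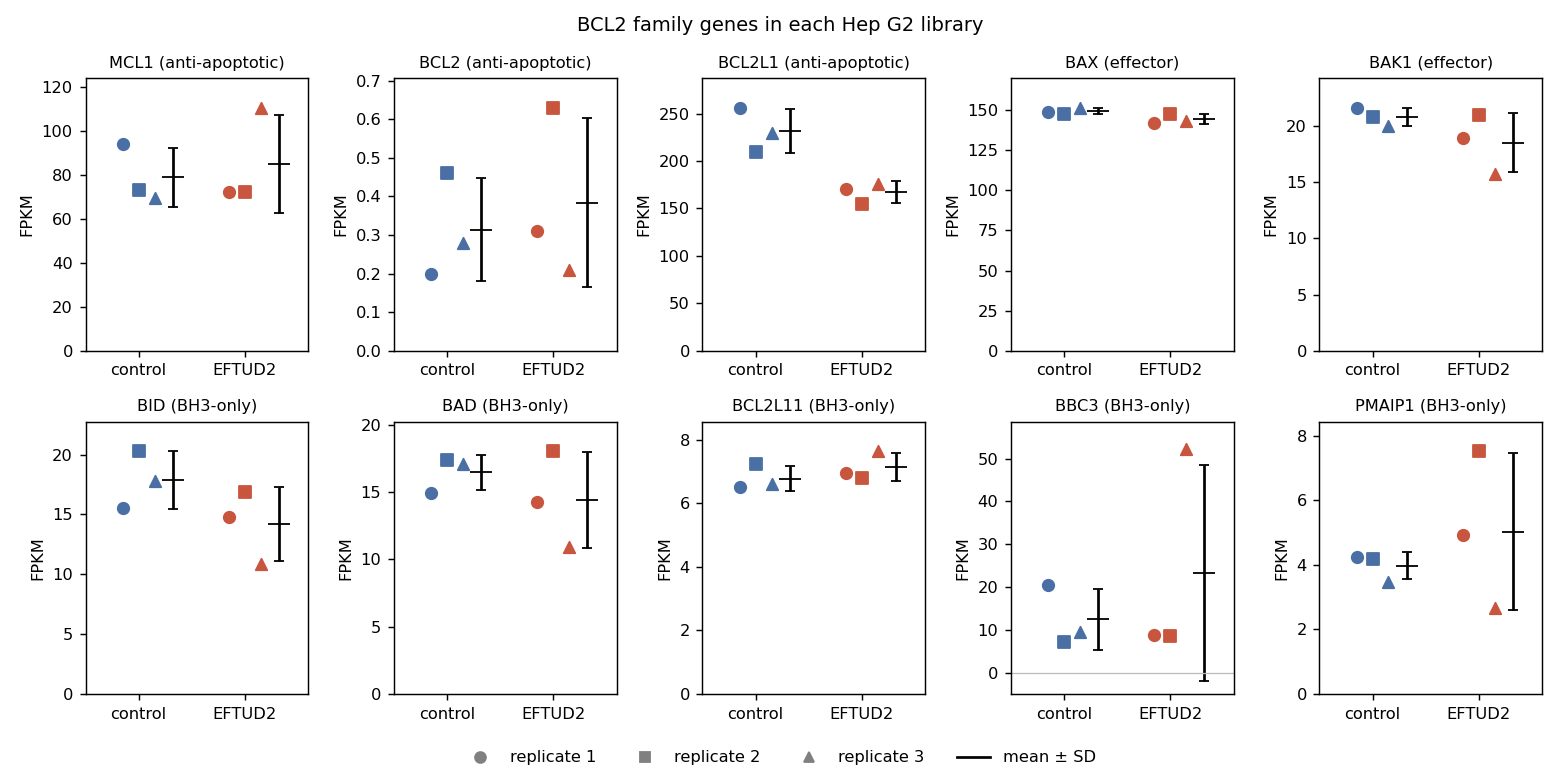
FPKM of each BCL2 family gene (vertical axis, each panel with its own scale) in the 3 control and 3 EFTUD2 libraries of Hep G2 cells. Points are libraries, with a marker shape per replicate number, and bars are the mean ± SD of 3 libraries. Of the 10 genes, BCL2L1 is the 1 whose groups do not overlap, with controls from 209.2 to 256.3 FPKM and EFTUD2 libraries from 154.7 to 176.1 FPKM, while BBC3 reaches 52.3 FPKM in EFTUD2 replicate 3.

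BCL2L1 (Entrez gene 598) encodes BCL-XL, which binds BAX, BAK1 and BH3-only proteins and keeps the mitochondrial membrane closed. Control libraries held 256.3, 209.2 and 229.5 FPKM of it and EFTUD2 libraries 171.0, 154.7 and 176.1 FPKM. In the deposited FPKM each EFTUD2 library lay below each control, which was so for 1 of the 10 members and for 19.4% of all genes tested. The group means were 232 ± 23.6 and 167 ± 11.2 FPKM (SD, n = 3 each), a difference of 64.5 FPKM or 27.8% of the control mean, which was larger than the SD of either group. On the log2 scale the fold change was -0.47 ± 0.12 (SE, 95% interval -0.75 to -0.18), with an adjusted p of 0.40 from limma and an unadjusted p of 0.0064. The exact two-sided permutation test gave p = 0.1, the smallest that 3 libraries against 3 can give. By unadjusted p, BCL2L1 ranked at position 262 of the 17222 genes.

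The lower BCL2L1 level had the same direction under all 17 alternatives. Of these, the other filters, the robust fit and the term for replicate number could not alter a log2 fold change. With each library left out in turn, its log2 fold change stayed between -0.54 and -0.39, and without EFTUD2 replicate 3 it was -0.50 (adjusted p = 0.12 from limma). Scaling by the median of ratios brought it to -0.32. That scaling divided control replicate 2 by 1.07 and EFTUD2 replicate 3 by 0.861. EFTUD2 replicate 3 then lay above control replicate 2, so the groups of BCL2L1 overlapped. With array weights, which let libraries count unequally in the fit, the adjusted p of BCL2L1 was 0.016 in a limma fit that called 7.23% of all genes. The estimation of those weights stopped before convergence, with a weight of 27.7 for control replicate 3 and 0.035 for EFTUD2 replicate 1. Without EFTUD2 replicate 3, limma called 0.973% of all genes, and BCL2L1 was not among them.

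MCL1 (Entrez gene 4170) encodes a short-lived anti-apoptotic protein that binds BAK1 and BH3-only proteins. Control libraries held 94.4, 73.3 and 69.5 FPKM and EFTUD2 libraries 72.1, 72.2 and 110.8 FPKM. EFTUD2 replicate 3 and control replicate 1 were high and the other 4 libraries lay close together, so the groups overlapped. The group means were 79.1 ± 13.4 and 85.0 ± 22.3 FPKM (SD, n = 3 each). From limma the log2 fold change was 0.09 ± 0.21 (SE, adjusted p = 0.85), and its 95% interval, from -0.40 to 0.58, allowed ratios from 0.757 to 1.49. Without EFTUD2 replicate 3 the direction turned, to -0.12.

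BCL2 (Entrez gene 596) encodes the anti-apoptotic protein for which the family is named. Its values were 0.20, 0.46 and 0.28 FPKM in control libraries and 0.31, 0.63 and 0.21 FPKM in EFTUD2 libraries. Each of these is under 1 FPKM, and the groups overlapped (limma log2 fold change 0.07 ± 0.14 SE, adjusted p = 0.82). Its log2 fold change was 0.16 without EFTUD2 replicate 3 and turned to -0.06 without EFTUD2 replicate 2.

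BAX (Entrez gene 581), which forms pores in the mitochondrial outer membrane once activated, had the narrowest range of the members. Control libraries held 149.1, 147.6 and 151.6 FPKM and EFTUD2 libraries 141.9, 147.7 and 143.4 FPKM. The highest of the 6 values was 1.07 times the lowest, and EFTUD2 replicate 2 lay just above control replicate 2. The limma log2 fold change was -0.05 ± 0.09 (SE, 95% interval -0.26 to 0.16, adjusted p = 0.79), and it turned to 0.09 under scaling by the median of ratios.

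BAK1 (Entrez gene 578) encodes the other pore-forming protein. It was at 21.7, 20.8 and 19.99 FPKM in control libraries and at 19.0, 20.98 and 15.7 FPKM in EFTUD2 libraries. EFTUD2 replicate 3 was the lowest library and EFTUD2 replicate 2 lay among the controls. Its log2 fold change was -0.17 ± 0.13 (SE, adjusted p = 0.54 from limma), and -0.06 without EFTUD2 replicate 3.

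Among the BH3-only genes, BID (Entrez gene 637) encodes the protein that caspase-8 cleaves to link death receptors to mitochondria. Control libraries held 15.5, 20.3 and 17.8 FPKM and EFTUD2 libraries 14.8, 16.9 and 10.9 FPKM. EFTUD2 replicate 2 lay above control replicate 1, so the groups overlapped. Its log2 fold change was -0.33 ± 0.18 (SE, adjusted p = 0.44 from limma), and -0.16 without EFTUD2 replicate 3. The direction was the same under all alternatives that could alter it.

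BAD (Entrez gene 572) encodes a partner of BCL-XL that phosphorylation keeps inactive. Control libraries held 14.95, 17.4 and 17.1 FPKM and EFTUD2 libraries 14.2, 18.1 and 10.9 FPKM. The highest and the lowest value were both in the EFTUD2 group. Its log2 fold change was -0.20 ± 0.18 (SE, adjusted p = 0.59 from limma), and -0.03 without EFTUD2 replicate 3.

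BCL2L11 (Entrez gene 10018) encodes BIM, which binds all anti-apoptotic members and activates BAX and BAK1. Control libraries held 6.5, 7.22 and 6.6 FPKM and EFTUD2 libraries 6.96, 6.8 and 7.65 FPKM. The groups overlapped within a narrow range (limma log2 fold change 0.07 ± 0.12 SE, 95% interval -0.21 to 0.34, adjusted p = 0.79). The log2 fold change kept its direction under all alternatives that could alter it, and was 0.02 without EFTUD2 replicate 3.

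PMAIP1 (Entrez gene 5366) encodes NOXA, a partner of MCL1 that promotes its breakdown. Control libraries held 4.24, 4.19 and 3.48 FPKM and EFTUD2 libraries 4.91, 7.53 and 2.65 FPKM. EFTUD2 replicates 1 and 2 were above all controls and replicate 3 below them. The limma log2 fold change was 0.20 ± 0.30 (SE, adjusted p = 0.75), 0.52 without EFTUD2 replicate 3 (adjusted p = 0.23) and -0.09 without EFTUD2 replicate 2.

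**Figure D2:**
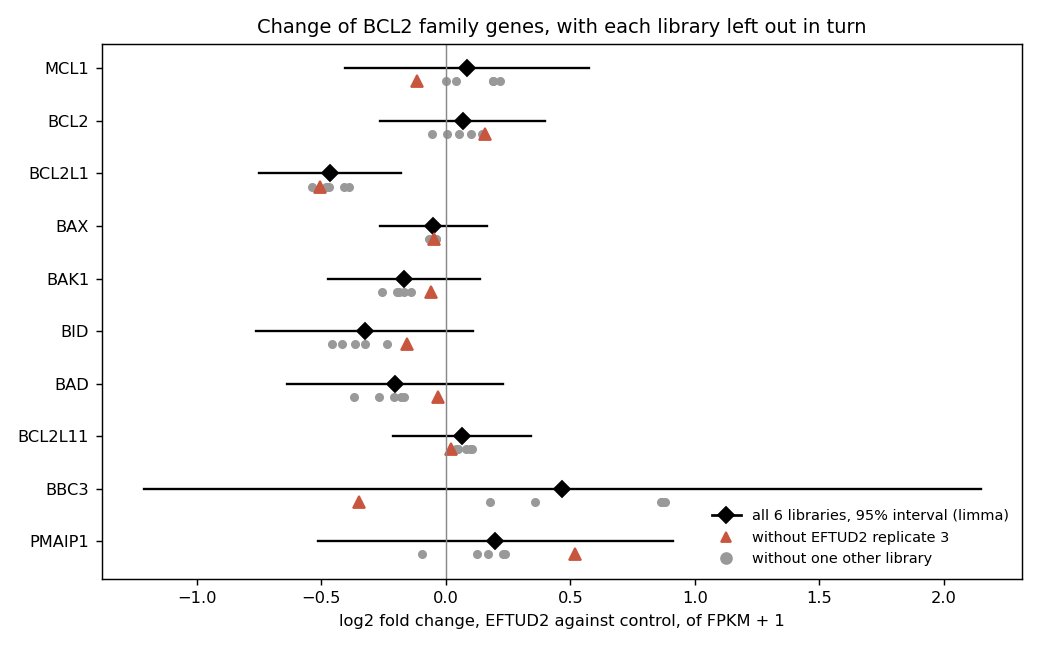
Log2 fold change of FPKM + 1 (horizontal axis) of each BCL2 family gene in EFTUD2 against control cells. Diamonds with lines are the limma estimate from 6 libraries with its 95% interval, grey points leave out 1 other library each, and triangles leave out EFTUD2 replicate 3. The interval of BCL2L1, -0.75 to -0.18, lies below 0 before adjustment, the other 9 include 0, and the triangle of BBC3 lies on the other side of 0 at -0.35.

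BBC3 (Entrez gene 27113) encodes PUMA, a BH3-only protein inducible by FOXO factors that binds all anti-apoptotic members. It varied most of all members, with its highest library at 7.12 times its lowest. Control libraries held 20.7, 7.35 and 9.7 FPKM and EFTUD2 libraries 8.87, 8.71 and 52.3 FPKM. EFTUD2 replicates 1 and 2 lay between control replicates 2 and 3, and EFTUD2 replicate 3 was 5.90 times EFTUD2 replicate 1. The limma log2 fold change was 0.47 ± 0.71 (SE, 95% interval -1.21 to 2.15, adjusted p = 0.75), and it turned to -0.35 without EFTUD2 replicate 3.

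Other genes shared the pattern of BBC3, high in EFTUD2 replicate 3 and next in control replicate 1. Likeness was measured over the 6 libraries by the root mean square difference of centred log2 values, among 6400 genes that averaged 10 FPKM or more. Nearest to BBC3 were MAFF (0.18), NR4A1 (0.20), GDF15 (0.23), SAT1 (0.24) and SLC25A25 (0.27), a search chosen after the values of BBC3 were seen. MAFF and NR4A1 are known to be switched on quickly after stimulation, and GDF15 is a secreted protein known to rise under stress. GDF15 was at 748.5, 282.6 and 314.7 FPKM in control libraries and at 267.6, 233.8 and 2072 FPKM in EFTUD2 libraries. BMF, a further BH3-only gene, had 6.23, 2.99 and 4.04 FPKM against 4.62, 3.64 and 17.3 FPKM, and was named after its values were seen, as was BCL6. BCL6, which encodes a transcriptional repressor, had 23.4, 9.23 and 15.9 FPKM against 18.8, 17.5 and 81.0 FPKM. The part of the state of these cultures in the pattern was not tested.

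The 5 profiles nearest to MCL1, by the same measure, were those of PNRC2 (0.047), SPAG9 (0.057), RPS29 (0.057), TNFRSF10B (0.064) and TLE1 (0.068). TNFRSF10B, a death receptor for TRAIL, was at 69.6, 52.4 and 53.2 FPKM in control libraries and at 50.3, 49.3 and 74.5 FPKM in EFTUD2 libraries, so it too was high in control replicate 1 and EFTUD2 replicate 3. With 6 libraries and 6400 genes compared, such near matches are a description only.

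**Figure D3:**
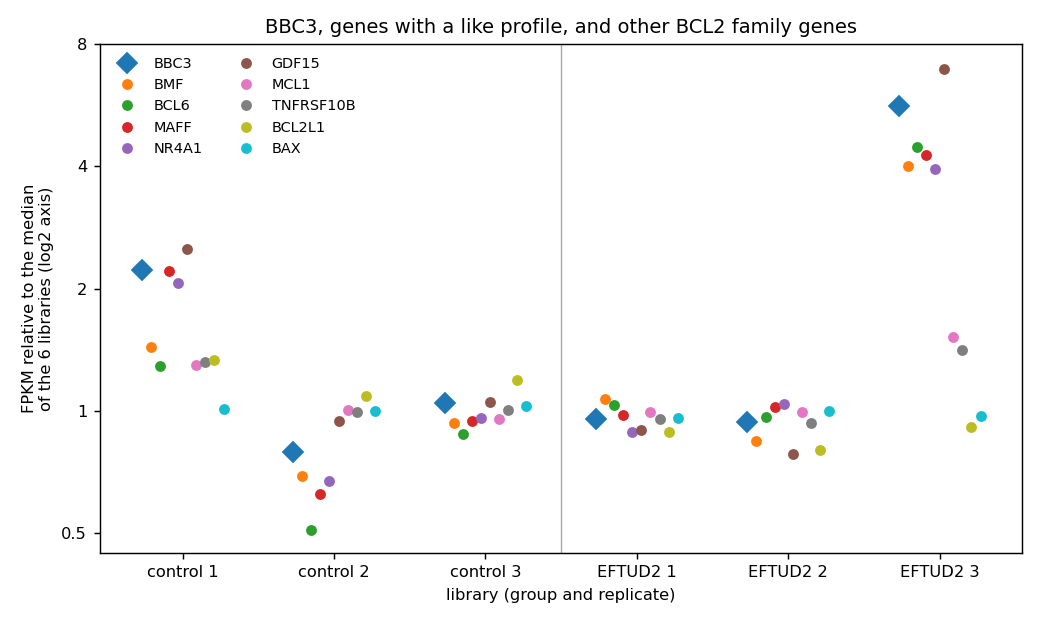
FPKM of BBC3, of the family genes BMF, MCL1, BCL2L1 and BAX and of BCL6, MAFF, NR4A1, GDF15 and TNFRSF10B, each relative to the median of its 6 libraries (vertical axis, log2 scale), in each library (horizontal axis). Points are single libraries and replicates have no order. BBC3 stands at 5.63 times its median in EFTUD2 replicate 3 and 2.22 times in control replicate 1, while BAX stays between 0.961 and 1.03 times its median in all 6 libraries.

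EFTUD2 replicate 3 was the highest library for 3 members (MCL1, BCL2L11 and BBC3) and the lowest for 4 (BAK1, BID, BAD and PMAIP1). That is 70% of the members, and this library was the highest or the lowest for 66.3% of all genes tested. A group of 6 genes at 1.8 FPKM or less in the controls (VIM, LDHB, KRT17, KRT7, CD44 and IL6, chosen from earlier results on these values) was also unequal between the EFTUD2 libraries. Their summed level was 145, 320 and 16.4 FPKM in EFTUD2 libraries, while no control exceeded 3.01 FPKM. Within the EFTUD2 group, 5 members (BCL2, BAK1, BID, BAD and PMAIP1) followed the same order, highest in replicate 2 and lowest in replicate 3. The share of all genes with that order was not computed, so it cannot be read as particular to the members. The part of cells that express the group of 6 genes in that order was not tested.

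Most markers of other cell types were low. Of 8 fibroblast genes, 4 stayed under 0.1 FPKM in every library, with COL1A2 at 0 throughout. COL1A1 was at 0.15, 0.09 and 0.1 FPKM in control libraries and at 0.78, 2.05 and 0.11 FPKM in EFTUD2 libraries. COL3A1 was at 0 in the controls against 0.62, 1.49 and 0.14 FPKM. LUM was at 0.01 FPKM or less in the controls against 0.35, 0.56 and 0.01 FPKM. PDGFRB overlapped, at 1.43, 0.41 and 1.05 FPKM against 1.1, 0.68 and 2.07 FPKM. The list summed to 0.52 to 1.63 FPKM in the controls and 2.35 to 4.89 FPKM in the EFTUD2 libraries. Of 6 lymphocyte genes, 5 were in the table, and CD3E and CD2 were listed at 0 in all libraries. That list summed to 1.66 to 4.21 FPKM and to 1.86 to 3.96 FPKM. Of 8 macrophage genes, TYROBP was at 0 in all libraries and PTPRC at 0.02 FPKM or less. Their sum, most of it CD68, was 19.1 to 31.9 FPKM in the controls and 27.7 to 36.0 FPKM in the EFTUD2 libraries. The 6 endothelial genes summed to 1.26 to 1.68 FPKM in the controls and 1.32 to 1.75 FPKM in the EFTUD2 libraries. Of these, CDH5 (0.06 to 0.08 against 0.19 to 0.28 FPKM) and VWF (0.15 to 0.33 against 0.46 to 0.60 FPKM) were above every control in each EFTUD2 library, and PECAM1 (0.85 to 1.19 against 0.54 to 0.81 FPKM) was below every control. The part of such cells in the results was not tested.

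Ratios between members within a library do not depend on the scaling between libraries. The ratio of BAX to BCL2, a common index of readiness for apoptosis, was 745, 321 and 541 in control libraries and 458, 234 and 683 in EFTUD2 libraries. The groups overlapped (exact permutation test of log2 ratios, two-sided p = 0.6, adjusted p = 0.9 over 3 ratios), and BCL2, the denominator, is under 1 FPKM in every library. The ratio of MCL1 to its partner PMAIP1 was 22.3, 17.5 and 19.97 in control libraries and 14.7, 9.59 and 41.8 in EFTUD2 libraries. Without EFTUD2 replicate 3 all EFTUD2 values lie below the controls, and with it the groups overlap (exact permutation test, two-sided p = 0.9, adjusted p = 0.9). The ratio of BCL2L1 to BAD was 17.1, 12.1 and 13.5 in control libraries and 12.01, 8.57 and 16.1 in EFTUD2 libraries (exact permutation test, two-sided p = 0.4, adjusted p = 0.9).

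A further 3 ratios, chosen after the values were seen and given without a test, set BCL2L1 against other members. Relative to BAX, BCL2L1 was at 1.72, 1.42 and 1.51 in control libraries and at 1.21, 1.05 and 1.23 in EFTUD2 libraries. Relative to MCL1, it was at 2.72, 2.85 and 3.30 in control libraries and at 2.37, 2.14 and 1.59 in EFTUD2 libraries. In both of these every EFTUD2 library lay below every control. Relative to BAK1, the ratio was 11.8, 10.04 and 11.5 in control libraries and 9.02, 7.37 and 11.2 in EFTUD2 libraries, and the groups overlapped. BCL2L1 was still the most abundant of the 10 members in each library. The 3 anti-apoptotic genes held 55.7% to 60.1% of the summed FPKM of the 10 members in the controls and 50.1% to 54.1% in the EFTUD2 libraries. BCL2L1 makes up most of that class, so this share mainly repeats its difference, and MCL1 and BCL2 overlapped between the groups. The BH3-only genes held 10.4% to 11.1% in the controls and 11.0%, 12.8% and 15.9% in EFTUD2 replicates 1 to 3, the last of these with BBC3 at 52.3 FPKM.

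**Figure D4:**
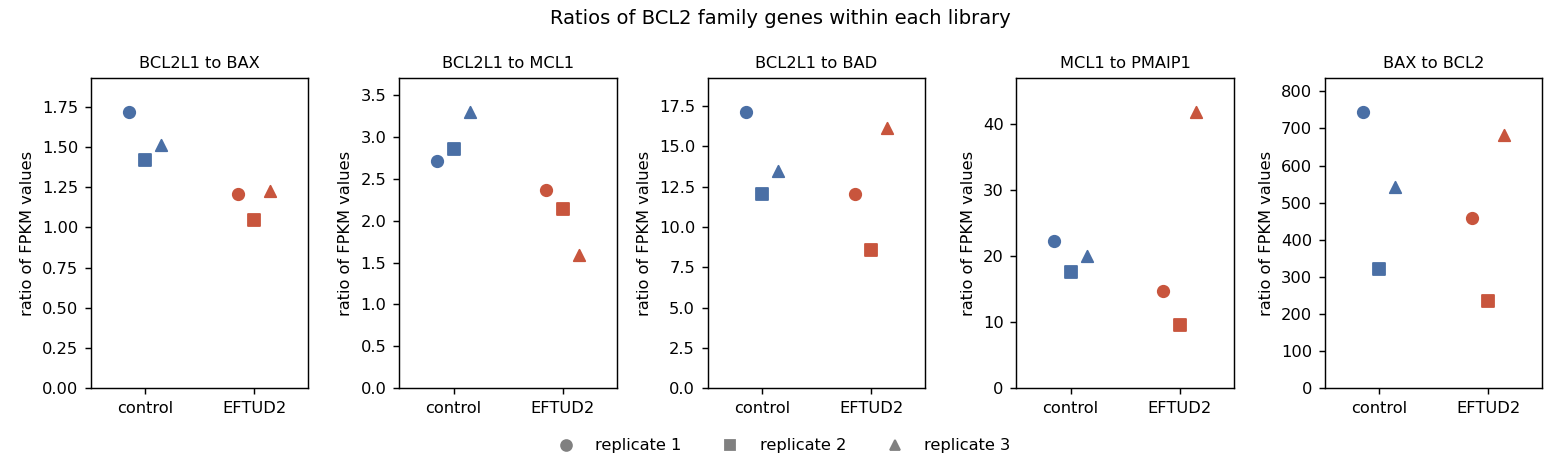
Ratios of the FPKM values of 2 BCL2 family genes within each library (vertical axis, each panel from 0), for 3 control and 3 EFTUD2 libraries. Points are libraries, with a marker shape per replicate number. The ratios of BCL2L1 to BAX and to MCL1 are lower in every EFTUD2 library than in any control. Both were chosen after the values were seen, as was the ratio of BCL2L1 to BAK1, which overlaps and is not plotted. The other ratios plotted overlap, and EFTUD2 replicate 3 reaches 41.8 for MCL1 to PMAIP1.

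Genes around the family were read from 5 lists of the pathway. Of 61 genes listed, 57 were tested by limma, of which 0 had an adjusted p under 0.05 and 7 an unadjusted p under 0.05, which is 12.3% of them and 12.3% of all genes. Of the 57, 40 were lower and 17 higher in EFTUD2 cells, so that 70.2% were lower against 62.7% of all genes, but under the median of ratios 27 were lower and 30 higher, against 47.1% of all genes lower. In 13 genes (22.8%) all EFTUD2 libraries lay below all controls, against 19.4% of all genes, and in 2 genes (3.51%) all lay above, against 7.92% of all genes.

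Of 13 other BCL2 relatives, 10 were tested, 6 higher and 4 lower, with a median log2 fold change of 0.05 and no gene whose groups were apart. Those with the smallest p were BCL2L12 (-0.21 ± 0.12 SE, adjusted p = 0.45 from limma) and the mitophagy receptor BNIP3L (0.34 ± 0.24 SE, adjusted p = 0.52 from limma). BCL2L10, BCL2L14 and BCL2L15 were too low to be tested, at no more than 0.20 FPKM in any library. BOK, an effector-like relative named after its values were seen, lay between 48.5 and 57.3 FPKM, above BAK1 per length in every library.

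In the mitochondrial pathway downstream of the family, 12 of 16 genes were lower and 4 higher, with a median log2 fold change of -0.17 (10 lower and a median of -0.05 under the median of ratios). BIRC3, an inhibitor of apoptosis protein, was at 2.63, 2.22 and 2.26 FPKM in control libraries and at 3.36, 4.39 and 4.57 FPKM in EFTUD2 libraries (limma log2 fold change 0.59 ± 0.15 SE, adjusted p = 0.39). DIABLO, which is released from mitochondria and blocks inhibitors of apoptosis, had 21.8, 21.2 and 20.6 FPKM against 16.2, 17.1 and 14.9 FPKM (limma log2 fold change -0.38 ± 0.10 SE, adjusted p = 0.40). In both genes the groups did not overlap.

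In the receptor pathway to BID, 8 of 10 genes were lower, with a median log2 fold change of -0.36 (7 lower and a median of -0.24 under the median of ratios). In 4 of them (CFLAR, CASP8, FADD and RIPK1), or 40% of the list, all EFTUD2 libraries lay below all controls, against 19.4% of all genes. CFLAR, the inhibitor of caspase-8 known as FLIP, had 29.1, 26.6 and 23.95 FPKM in control libraries against 18.3, 19.9 and 17.8 FPKM in EFTUD2 libraries (limma log2 fold change -0.48 ± 0.11 SE, adjusted p = 0.39). CASP8, the protease that cleaves BID, had 13.6, 17.1 and 13.96 FPKM against 12.7, 11.9 and 6.35 FPKM (limma log2 fold change -0.53 ± 0.25 SE, adjusted p = 0.41). The 4 genes thus hold an inhibitor of death receptor signaling beside proteins that carry the signal.

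Of the regulators, 9 of 12 genes tested were lower and 3 higher, a split that turned to 3 lower and 9 higher under the median of ratios. TP73, which encodes a transcription factor, was at 1.003 ± 0.049 FPKM in control cells and 0.663 ± 0.134 FPKM in EFTUD2 cells (SD, n = 3 each, limma log2 fold change -0.27, adjusted p = 0.40). STAT3, a known activator of MCL1, had 52.4, 48.6 and 50.5 FPKM against 63.2, 67.1 and 53.8 FPKM (limma log2 fold change 0.27 ± 0.11 SE, adjusted p = 0.40). Every EFTUD2 library of STAT3 lay above every control, which was so for 7.92% of all genes. MCL1 differed by less than its spread between libraries, and a link between these genes was not tested. Of 9 genes that control the turnover of MCL1 protein, 7 were lower (5 under the median of ratios). USP13, a deubiquitinase, had 11.4, 10.4 and 9.62 FPKM against 8.33, 7.66 and 5.34 FPKM (limma log2 fold change -0.52 ± 0.17 SE, adjusted p = 0.40). BTRC, part of a ubiquitin ligase for MCL1, had a log2 fold change of -0.38 ± 0.17 (SE, adjusted p = 0.40 from limma).

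**Figure D5:**
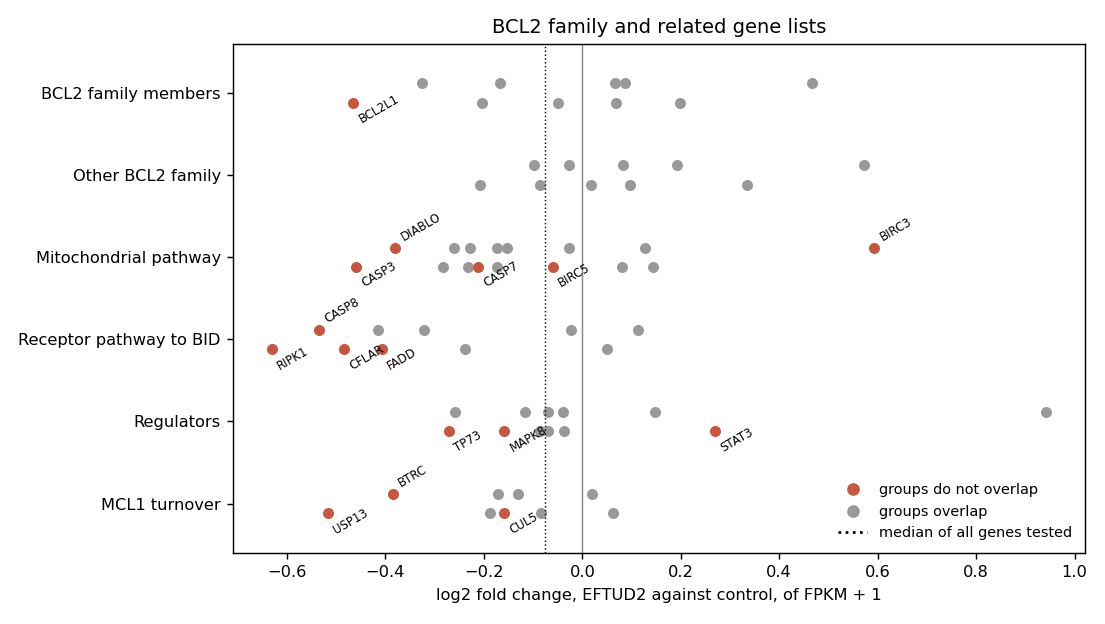
Log2 fold change of FPKM + 1 in EFTUD2 against control cells (horizontal axis) of the 10 BCL2 family genes and of the tested genes of 5 related lists (rows), without scaling by the median of ratios. Each point is a gene, red and named where its groups do not overlap, and the dotted line is the median of all genes tested at -0.07. Of the named points, BIRC3 and STAT3 lie above 0 and the other 14 below it.

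The promoters of 9 members have windows in the RefSeq table (GRCh38.p14), and MCL1 is the member without an entry, so its promoter was not searched. In the 250 bases before each of the 15 start sites listed for them, the STAT motif TTCNNNGAA, which reads the same on both strands, was found 0 times, and 6.57% of 35116 such windows of all genes held it. Some of the 15 windows overlap, as at BID and BAD, and so few cannot show whether the members differ from other genes. The share of G and C in these windows ranged from 47.6% at 1 start of BID to 78.0% at another, with 49.2% for BBC3, against a median of 58.0% over all windows.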

How the data were processed

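The authors deposited 1 table of FPKM values per gene for the 6 libraries, rounded to 2 decimals. The submitters' processing notes name HISAT2, Bowtie2, RSEM, DESeq2 and build hg38 without saying which step each served. Read counts were not used here, so the depth is unknown. Of 18762 Entrez numbers in the table, 18449 matched the RefSeq gene table.

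From the deposited FPKM, log2(FPKM + 1) was computed, and the 17222 genes averaging 0.1 FPKM or more were compared by limma 3.58.1 (lmFit, eBayes with trend) in R 4.3.3, with Benjamini-Hochberg adjustment over all genes. Single ratios were compared by exact two-sided permutation tests in Python 3.11.15. The members and lists were chosen with earlier results of these data known. Named genes are the members, the 2 genes of smallest p in each list and the 5 profiles nearest to MCL1. Genes named outside this rule were named after their values were seen. The values of 1 list gene are not reported here.

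The limma step was tested on simulated data with known log2 changes of 2 and, for each gene, the same spread in every library. Smaller changes, and a library that stands apart, were not simulated. Alternatives were other pseudocounts (0.1, 0.01), filters (none, 1 FPKM), scalings, robust fits, array weights, a replicate block and each library left out. Gene-by-gene array weights were added after the data were seen.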

Additional observations from a re-analysis of the deposited data

How the results depend on the processing

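Over 17 alternatives, the 10 members gave 169 values, of which 161 kept their direction and 2 passed the adjusted threshold, both for BCL2L1: log2 fold changes of -0.54 with array weights and -0.44 with weights estimated gene by gene (adjusted p of 0.016 and 0.019 from limma; 0.016 to 0.68 over all alternatives). The 161 include values from the other filters, the robust fit and the replicate block, which cannot alter a log2 fold change. With array weights BAK1 turned to 0.018 and BAD to 0.0086, with gene-by-gene weights BBC3 turned to -0.092, and under the median of ratios BAX turned to 0.090. With each library left out in turn, the log2 fold change ranged from -0.12 to 0.22 for MCL1, from -0.056 to 0.16 for BCL2, from -0.35 to 0.88 for BBC3 and from -0.094 to 0.52 for PMAIP1, and the log2 difference of the ratios from -0.63 to 0.14 for BAX to BCL2 and from -0.74 to 0.32 for MCL1 to PMAIP1. The number of genes called was 1 with no filter, 1246 with array weights, 1355 with gene-by-gene weights, and 0 to 167 with a library left out, the 167 without EFTUD2 replicate 3. At an unadjusted p under 0.05 it was 2118, 3763 with array weights, 4731 with gene-by-gene weights and 1096 to 2884 with a library left out. EFTUD2 itself was called with array weights (1.14), with gene-by-gene weights (1.15) and without EFTUD2 replicate 3 (1.14). With each library left out in turn its log2 fold change ranged from 1.07 to 1.26, and it was not called with any other library left out. The causes of these shifts were not tested. The deviations of same-numbered libraries from their group means had correlations of -0.30, 0.35 and -0.09, and those of other pairs ranged from -0.40 to 0.38. With 3 libraries per group these correlations cannot decide whether the numbers pair libraries, and the labels do not say. With the replicate block, which cannot alter a log2 fold change here, 0 genes were called and the adjusted p of BCL2L1 was 0.42 from limma. BCL2 had no value under the filter of 1 FPKM. Low FPKM values with unknown depth limit what BCL2 and PMAIP1 can show.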
